A study of Mus musculus with 18 samples.

Results

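DNA methyltransferases place methyl groups on cytosines of CpG dinucleotides, and a second set of proteins binds or removes the mark. The expression of 9 such genes was compared in mouse ES cells: Dnmt1, Uhrf1, Dnmt3a, Dnmt3b, Dnmt3l, Mbd1, Mbd2, Mbd4 and Tet1. All probe sets whose chip annotation names one of these genes and no other were taken, which gave 22 of the 36701 probe sets tested (10 on U74Av2, 6 on U74Bv2 and 6 on U74Cv2). Each probe set combines several short probes for the same transcript. Dnmt1, Uhrf1, Dnmt3b, Dnmt3l, Mbd1 and Mbd4 were each read by 2 probe sets, Dnmt3a by 4, Tet1 by 5 and Mbd2 by 1. Probe set numbers that contain f, r, i or g carry the manufacturer's mark for probes that may bind related transcripts or were chosen under relaxed rules, and their values are uncertain.

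ES cells of the FVB/N mouse strain were used. Wild type cells kept with LIF (WT LIF) were compared with cells of a line that carries the STAT3-MER transgene, kept with OHT (4-hydroxytamoxifen) and without LIF (STAT3-MER OHT). LIF is the cytokine that activates endogenous STAT3 in mouse ES cells, and STAT3-MER is STAT3 fused to a modified ligand-binding domain of the estrogen receptor, under a chicken β-actin promoter, so that OHT switches it on. Each group was 1 cell line and was represented by 3 separately grown dishes, so the tests measure the spread between dishes of a line and not between lines. Genotype and medium differed together between the groups, and their parts in a difference cannot be told apart. The sources name no age or passage of the cells used here, and the wild type lines did not give chimeras. Both lines were established on mouse embryonic fibroblasts, and in RNA of a whole dish fewer cells of a type and less RNA per cell cannot be told apart.

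Signals are linear intensities that the authors had scaled to a common trimmed mean, between 500.1 and 500.3 on the 18 arrays, and they carry no detection call. Esr1, which reads the receptor part of the transgene on probe set 93945_at, lay between 9.25 and 40.3 in WT LIF and between 25568 and 31548 in STAT3-MER OHT. It was the only probe set of all that passed the test (0.00272% of 36701). Markers of undifferentiated ES cells were present in every dish, with Nanog between 7035 and 14179 and Pou5f1 between 2157 and 8348. The summed signal of 8 fibroblast markers on U74Av2 was 29073, 14116 and 33077 in WT LIF replicates 1 to 3 and 8477, 34230 and 24108 in STAT3-MER OHT. These markers thus differed more between dishes of a group than between the groups, whose ranges overlapped. None of these fibroblast markers was measured on U74Bv2 or U74Cv2.

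In dividing cells, Dnmt1 copies the methylation pattern onto the new DNA strand, and Uhrf1 recognises the half-methylated site and brings Dnmt1 to it. Dnmt3a and Dnmt3b methylate sites that carried no mark before. Dnmt3l has no catalytic activity of its own, stimulates both enzymes and is typical of germ cells and ES cells. Mbd1, Mbd2 and Mbd4 bind methylated CpG through a shared domain, Mbd1 and Mbd2 as repressors and Mbd4 as a glycosylase that removes mismatched thymine at such sites. Tet1 oxidises the methyl group and is abundant in mouse ES cells.

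The starts of 4 of these genes, which differ in CpG content, are shown. They include every member window with a match to the motifs below, so matches are commoner among them than among all windows of the members. The comparison concerns STAT3, whose family binds TTCNNNGAA. Windows of 300 bases (250 before and 50 after a transcription start) were taken from RefSeq on GRCm38.p6, where 7 of the 9 genes had a total of 14 windows. Mbd1 and Mbd2 had no window in the table used. Capitals mark TTCNNNGAA, or the E2F motif TTTCGCGC, searched on both strands. E2F factors drive many genes of DNA replication. No window of a member held both motifs, so that no matches overlap.

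Dnmt1, chr9:20952574-20952873, minus strand: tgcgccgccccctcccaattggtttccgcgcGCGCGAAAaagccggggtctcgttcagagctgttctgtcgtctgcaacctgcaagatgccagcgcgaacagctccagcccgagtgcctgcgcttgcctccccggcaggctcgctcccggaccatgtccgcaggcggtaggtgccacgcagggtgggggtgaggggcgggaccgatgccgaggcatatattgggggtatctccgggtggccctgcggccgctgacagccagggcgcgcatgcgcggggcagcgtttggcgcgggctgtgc
Uhrf1, chr17:56304063-56304362, plus strand: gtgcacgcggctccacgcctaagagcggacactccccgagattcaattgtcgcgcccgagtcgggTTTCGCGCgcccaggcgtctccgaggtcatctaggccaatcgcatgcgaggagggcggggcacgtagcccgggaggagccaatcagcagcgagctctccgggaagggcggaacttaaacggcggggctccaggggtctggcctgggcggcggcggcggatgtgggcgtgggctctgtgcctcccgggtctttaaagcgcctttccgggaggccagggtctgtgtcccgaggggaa
Dnmt3b, chr2:153649199-153649498, plus strand: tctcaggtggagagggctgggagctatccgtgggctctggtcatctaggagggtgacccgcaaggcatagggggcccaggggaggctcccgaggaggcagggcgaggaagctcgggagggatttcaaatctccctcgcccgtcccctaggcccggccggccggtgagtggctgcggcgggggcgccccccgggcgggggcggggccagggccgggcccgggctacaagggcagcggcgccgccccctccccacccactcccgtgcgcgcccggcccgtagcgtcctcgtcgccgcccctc
Dnmt3l, chr10:78049592-78049891, plus strand: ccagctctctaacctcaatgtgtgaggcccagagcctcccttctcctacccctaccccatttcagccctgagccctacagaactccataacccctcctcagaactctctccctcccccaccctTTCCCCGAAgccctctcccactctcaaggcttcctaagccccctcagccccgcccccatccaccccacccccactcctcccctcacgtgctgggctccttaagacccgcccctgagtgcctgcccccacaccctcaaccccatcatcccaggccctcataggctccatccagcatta

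The windows of the maintenance genes Dnmt1 and Uhrf1 each held 33 CpG dinucleotides, and 91.4% of all 32851 windows held fewer. Both held an E2F motif, which was found in 0.323% of all windows. It lay 219 bases before the annotated start used for Dnmt1 and 185 bases before that used for Uhrf1. Dnmt1 has other annotated starts upstream of the one used, so its distance holds for this window only. The window of Dnmt3b held 30 CpG and neither motif. The window of Dnmt3l held 4 CpG, against a median of 7 over all windows. It also held a match to the STAT motif, 127 bases before the start. This motif was found in 8.3% of all windows and in no other of the 14 member windows. Dnmt3l had 2 further windows with 6 and 3 CpG, Dnmt1 had 2 with 12 and 2, and Uhrf1 had a further window with 12. None of these held a match to these motifs. The windows of Dnmt3a (46, 47 and 18 CpG), Mbd4 (25) and Tet1 (17) held no STAT or E2F motif. A match describes the letters in the window and no binding was measured.

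None of the 22 probe sets passed the test between the groups (limma, adjusted p = 0.9996 for each, Benjamini-Hochberg over 36701 probe sets). At an unadjusted p under 0.05 there was 1 of 22, lower in STAT3-MER OHT, where 3.45% of all probe sets stood past that limit (1.88% higher and 1.57% lower). In 2 of 22 the values of the groups did not overlap, 1 in each direction, where 8.13% of all probe sets did not overlap (4.5% higher and 3.63% lower). The median difference of the 22 probe sets was 0.02 on the log2(signal + 32) scale, and that of all probe sets was 0.01. Of the 22, 12 had a mean higher in STAT3-MER OHT on this scale. Differences are given as STAT3-MER OHT minus WT LIF on this scale, which understates the change of dim probe sets, with the standard error in parentheses and a 95% interval where stated. The smallest two-sided p that exact permutation of 6 dishes could reach is 0.1.

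**Figure D1:**
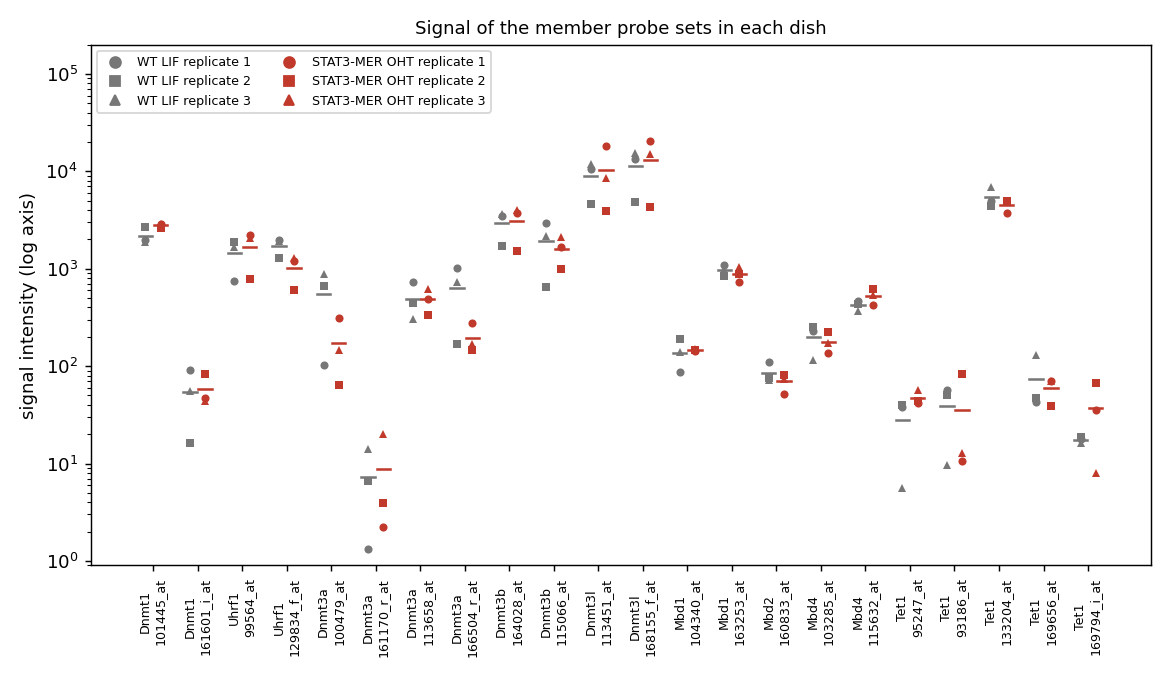
Signal intensity (log axis) of the 22 probe sets in each dish, with a bar at the group mean, WT LIF in grey and STAT3-MER OHT in red. The points of the groups overlap in 20 of 22 probe sets, and Uhrf1 129834_f_at and Tet1 95247_at are the exceptions.

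**Figure D2:**
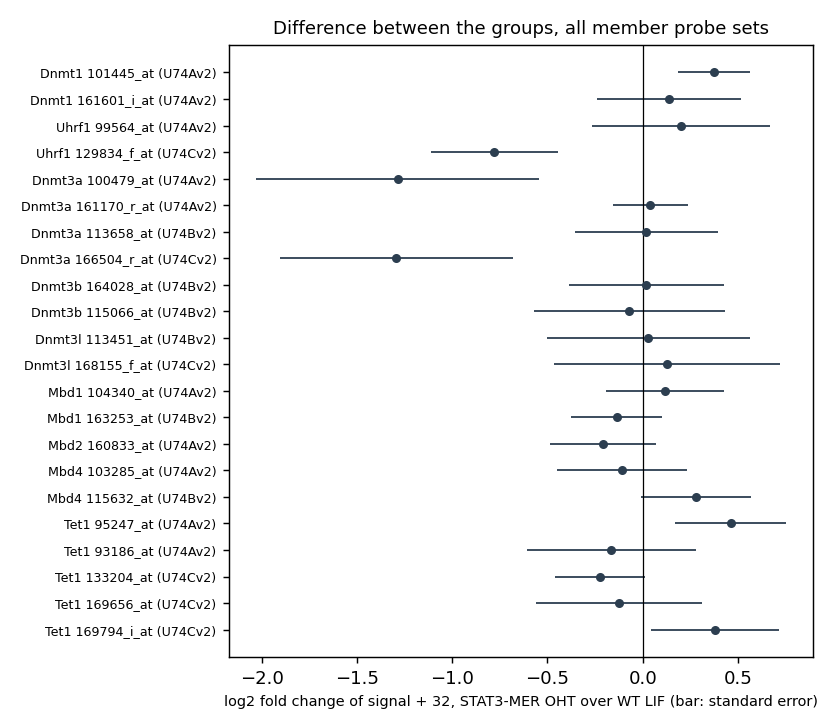
Difference between the groups for each probe set, as log2 fold change of signal + 32 with its standard error (bar, n = 3 per group). Most differences lie within their standard error of 0, and the 2 largest are those of Dnmt3a 100479_at and 166504_r_at, both at −1.29 with wide errors.

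Dnmt1, the maintenance methyltransferase, was read by 101445_at at 1988, 2658 and 1892 in WT LIF and at 2911, 2642 and 2853 in STAT3-MER OHT. The 3 STAT3-MER OHT dishes lay close together, and the highest wild type dish, number 2, exceeded the lowest of them. The means were 2179 ± 417 and 2802 ± 142 (SD, n = 3), a ratio of 1.29. The difference was 0.37 (0.19), with an unadjusted p of 0.0812 (limma, adjusted p = 0.9996) and an interval from −0.06 to 0.80. Its sign was kept with each dish left out, where it lay between 0.28 and 0.52. The second probe set of Dnmt1, 161601_i_at, was dim, between 16.2 and 90.6, and its difference was 0.14 (0.38).

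The 2 probe sets of Uhrf1 had differences of opposite sign. On 99564_at the signals were 741, 1873 and 1691 in WT LIF and 2199, 782 and 2092 in STAT3-MER OHT. One dish in each group, number 1 of WT LIF and number 2 of STAT3-MER OHT, lay well below the others, and the groups overlapped. The means were 1435 ± 608 and 1691 ± 789 (SD, n = 3), and the difference was 0.20 (0.47), with an interval from −0.87 to 1.27. With a dish left out it lay between −0.21 and 0.67.

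On 129834_f_at, whose probes may also bind related transcripts, Uhrf1 read 1962, 1288 and 1942 in WT LIF and 1191, 611 and 1277 in STAT3-MER OHT. The groups did not overlap, by the narrow step from 1277 to 1288. The means were 1730 ± 384 and 1026 ± 362 (SD, n = 3), and WT LIF was 1.69 times higher. The difference was −0.78 (0.33), with an interval from −1.53 to −0.03 and an unadjusted p of 0.0441 (limma, adjusted p = 0.9996). With the replicate number added to the fit as a block, the standard error was 0.22 and the interval ran from −1.30 to −0.25. The unadjusted p was then 0.0095 (limma, adjusted p = 0.9995). The share of all probe sets under 0.05 with the block is not given here. Arrays of the same number were only weakly alike on U74Cv2 (correlations between 0.070 and 0.132), so the narrower interval is uncertain. This probe set was the only one of the 22 past the criteria of the study's methods (a ratio over 1.5, a difference over 100 and p under 0.1 in the methods' t-test), which 1.98% of all probe sets passed (1.1% higher and 0.872% lower). The probe sets of Uhrf1 thus gave no common direction.

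The low dishes of Uhrf1 99564_at were also low in Pcna, the replication clamp, which read 6116, 10516 and 8060 in WT LIF and 10938, 5491 and 7809 in STAT3-MER OHT. Over 18 genes of S phase on U74Av2, the summed signal was 26723, 38476 and 35327 in WT LIF and 40736, 26435 and 36184 in STAT3-MER OHT, lowest in the same 2 dishes. The fibroblast gene Col1a2 read 9561, 4149 and 9352 in WT LIF and 1978, 12565 and 8411 in STAT3-MER OHT. It was highest of its group in those same dishes, and the summed fibroblast markers were highest there for STAT3-MER OHT and second highest for WT LIF. Not all fibroblast genes had this order. Col3a1, Col6a1, Lum, Postn and Thy1 were highest in replicate 3 of WT LIF, and Col6a1 and Thy1 also in replicate 3 of STAT3-MER OHT. The part of fibroblast markers in the level of Uhrf1 was not tested. Dnmt1 101445_at read 1988 and 2642 in these dishes, and 1892, in WT LIF replicate 3, was its lowest value.

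**Figure D3:**
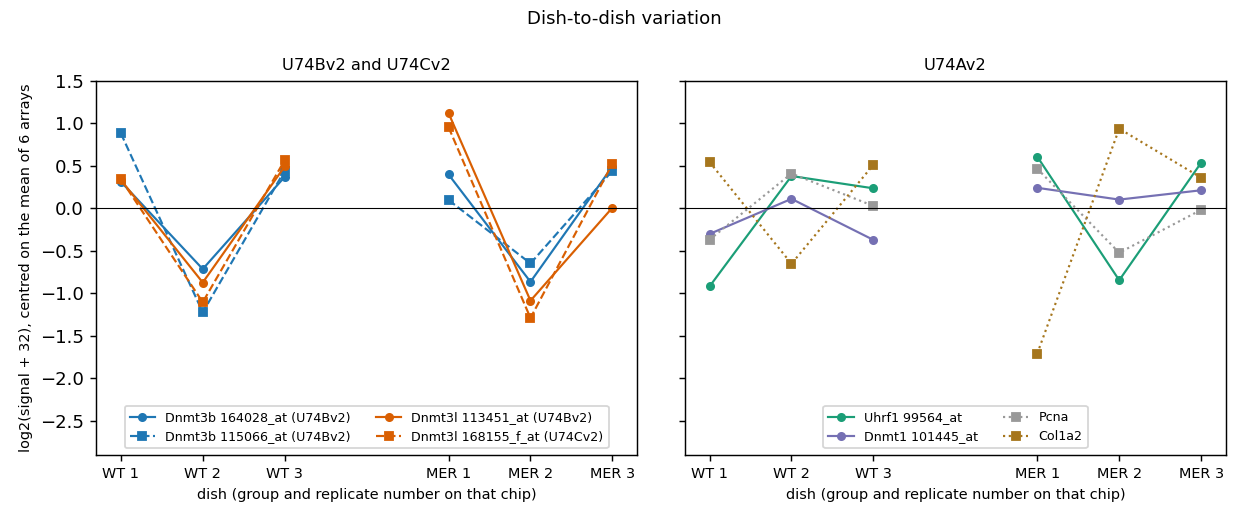
log2(signal + 32) of single probe sets centred on the mean of 6 arrays, by group and replicate number on each chip. Dnmt3b and Dnmt3l on U74Bv2 and U74Cv2 are at the left, and Uhrf1, Dnmt1, Pcna and Col1a2 on U74Av2 at the right. Dnmt3b and Dnmt3l are lowest in replicate 2 of both groups, and Uhrf1 is lowest in WT LIF replicate 1 and STAT3-MER OHT replicate 2.

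Among the de novo enzymes, Dnmt3a had a lower mean in STAT3-MER OHT on 2 probe sets of different chips and a like mean on another. On 100479_at the signals were 103, 658 and 888 in WT LIF and 310, 63.7 and 148 in STAT3-MER OHT. Wild type dishes 2 and 3 lay above all others and dish 1 below 2 of the transgenic dishes. The means were 550 ± 404 and 174 ± 125 (SD, n = 3), WT LIF being 3.16 times higher, and the difference was −1.29 (0.74), with an interval from −2.998 to 0.42.

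On 166504_r_at, Dnmt3a read 1016, 169 and 729 in WT LIF and 275, 146 and 168 in STAT3-MER OHT. Here wild type dishes 1 and 3 were above all others and dish 2 lay among the transgenic ones. The means were 638 ± 431 and 196 ± 69.2 (SD, n = 3), and WT LIF was 3.25 times higher. The difference was −1.29 (0.61), with an unadjusted p of 0.0635 (limma, adjusted p = 0.9996) and an interval from −2.67 to 0.09. With the replicate number as a block the standard error was 0.47 and the interval ran from −2.39 to −0.19. The unadjusted p was then 0.0272 (limma, adjusted p = 0.9995), with the same limits as for Uhrf1 on this chip.

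With a dish left out, the first of these differences lay between −2.14 and −0.76 and the second between −2.01 and −0.82, so that both kept their sign while their size moved by over 1.5 times. Without number 2 of both groups, a comparison chosen after the data were seen, the first was −0.50 and the second −1.85. The low wild type dish was number 1 on U74Av2 and number 2 on U74Cv2, and whether these are different dishes is not certain.

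On 113658_at, which has no mark for cross-binding and is the brightest such probe set of Dnmt3a, the signals were 723, 448 and 305 in WT LIF and 490, 338 and 625 in STAT3-MER OHT. The groups overlapped throughout, and the difference was 0.02 (0.38), with an interval from −0.82 to 0.86. The fourth probe set, 161170_r_at, lay between 1.34 and 20.1 in all dishes, and its difference was 0.04 (0.20). Dnmt3a has several transcripts, and which of them each probe set reads was not determined here. Probe sets of one gene that differ in this way do not settle a direction.

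**Figure D4:**
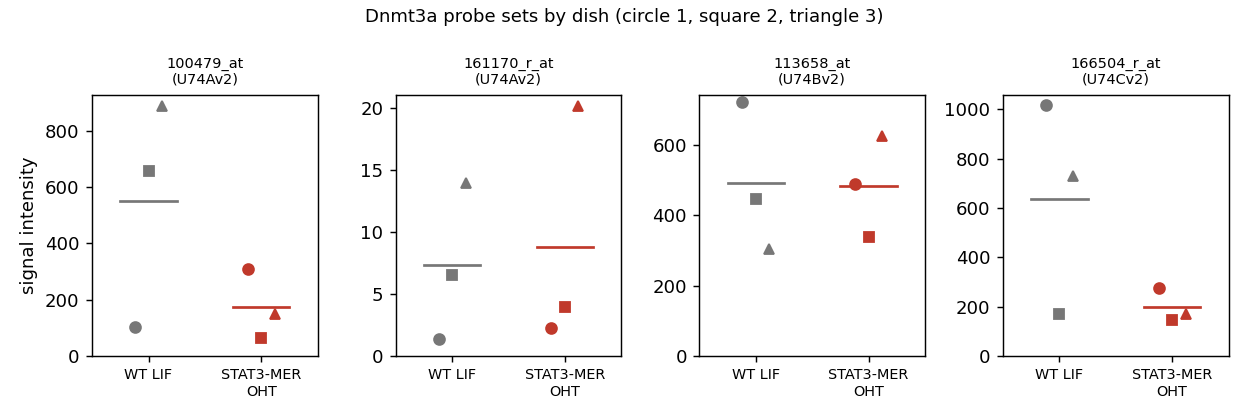
Signal intensity of the 4 probe sets of Dnmt3a by dish (circle, square and triangle for replicates 1, 2 and 3), with a line at the group mean and a separate axis from 0 in each panel. In 2 of the panels a pair of wild type dishes lies above all STAT3-MER OHT dishes while the remaining wild type dish does not.

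Dnmt3b, the other de novo enzyme, was at a similar mean in both groups. On 164028_at the signals were 3520, 1708 and 3660 in WT LIF and 3733, 1535 and 3986 in STAT3-MER OHT. Replicates 1 and 3 of both groups lay together and replicate 2 of both groups lay far below. The means were 2963 ± 1089 and 3085 ± 1348 (SD, n = 3), and the difference was 0.02 (0.41), with an interval from −0.89 to 0.93. Arrays of the same number were weakly alike on this chip (correlations of deviations from the group means between 0.130 and 0.211). With the number as a block the standard error was 0.17 and the interval ran from −0.37 to 0.40.

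The second probe set of Dnmt3b, 115066_at, read 2922, 652 and 2143 in WT LIF and 1681, 988 and 2142 in STAT3-MER OHT. Again replicate 2 was the lowest of each group, and the groups overlapped. The means were 1906 ± 1153 and 1604 ± 581 (SD, n = 3), and the difference was −0.07 (0.50), with a standard error of 0.26 and an interval from −0.67 to 0.53 with the block. Without replicate 2 of both groups the differences of the 2 probe sets were 0.10 (0.23) and −0.39 (0.27).

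Dnmt3l, the cofactor of these enzymes, was read at 10650, 4590 and 11885 in WT LIF and at 18386, 3952 and 8482 in STAT3-MER OHT on 113451_at. Its 2 groups had means of 9041 ± 3904 and 10274 ± 7382 (SD, n = 3). The highest array was 4.65 times the lowest, and both ends of this range lay within STAT3-MER OHT. The difference between the groups was 0.03 (0.53), with an interval from −1.16 to 1.22, or from −0.56 to 0.61 with the block.

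The second Dnmt3l probe set, 168155_f_at on U74Cv2, gave 13314, 4851 and 15531 in WT LIF and 20342, 4259 and 15091 in STAT3-MER OHT. By the replicate numbers of this other chip, replicate 2 was low in both groups and STAT3-MER OHT replicate 1 was the highest of all. The means were 11232 ± 5636 and 13231 ± 8201 (SD, n = 3). The difference was 0.13 (0.59), with an interval from −1.21 to 1.46, or from −0.30 to 0.55 with the block. Without replicate 2 of both groups it was 0.28 (0.23), and that of 113451_at was 0.15 (0.37). Thus the spread between dishes of a group exceeded the difference between the groups in both genes.

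All 4 probe sets of Dnmt3b and Dnmt3l were lowest in replicate 2 of each group. This order was found in 14.6% of the 12411 probe sets of U74Bv2 and in 13.9% of the 11868 of U74Cv2. On U74Cv2, Dnmt3a 166504_r_at and Uhrf1 129834_f_at had it as well. On U74Av2, Uhrf1 99564_at and Dnmt3a 100479_at were lowest in WT LIF replicate 1 and STAT3-MER OHT replicate 2, as were 14.5% of the 12422 probe sets of that chip. It is not certain that a replicate number of WT LIF stands for the same dish on every chip. Replicate numbers of different chips are set side by side as a description, and no calculation joined values of different chips by dish.

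Genes of the same chip with the most similar course over the 6 arrays were taken as a description. For Dnmt3b 164028_at they were Mtss1 and Jarid2, with a root mean square difference of 0.0836 and 0.138 in centred log2(signal + 32) among 3120 probe sets. Jarid2 is a cofactor of the Polycomb repressive complex. For Dnmt3l 113451_at the nearest were Ubtf (0.254) and 3110001I22Rik (0.256) of 3121. The difference was not scaled to how much each member itself varied, so its size cannot be ranked between members. For Uhrf1 99564_at they were Imp4 (0.148) and Folr1 (0.158) of 2607, for Dnmt3a 113658_at Lin37 (0.136) and Mapk1ip1l (0.137) of 3122, and for Mbd2 160833_at Fam117a (0.0567) and Mrpl52 (0.0685) of 2608.

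No probe set of the readers stood apart between the groups. Mbd1, a repressor that binds methylated CpG, read 1095, 841 and 974 in WT LIF and 732, 883 and 1031 in STAT3-MER OHT on 163253_at. Highest and lowest dishes belonged to different groups, but the ranges overlapped over most of their length. The difference was −0.14 (0.24), with an interval from −0.68 to 0.40. On the dimmer 104340_at, Mbd1 read 86.7, 188 and 139 in WT LIF and between 144 and 149 in STAT3-MER OHT, with a difference of 0.12 (0.31).

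Mbd2, which recruits the NuRD complex to methylated DNA, had 1 probe set, 160833_at, at 110, 75.1 and 71.8 in WT LIF and 52.3, 82.0 and 74.5 in STAT3-MER OHT. It was dim in all dishes and the groups overlapped. The difference was −0.21 (0.28), with an interval from −0.85 to 0.43.

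Mbd4, the glycosylase, read 464, 439 and 368 in WT LIF and 420, 621 and 535 in STAT3-MER OHT on 115632_at. A pair of STAT3-MER OHT dishes lay above every wild type dish and the remaining one lay among them. The difference was 0.28 (0.29), with an interval from −0.37 to 0.93, and between 0.16 and 0.42 with a dish left out. On 103285_at, Mbd4 read 231, 251 and 116 against 136, 224 and 172, and the difference had the other sign at −0.11 (0.34).

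Tet1, which starts the removal of the mark by oxidation, read 4911, 4365 and 6941 in WT LIF and 3776, 4998 and 4924 in STAT3-MER OHT on 133204_at. The highest dish was wild type and the lowest was transgenic, and the others were intermixed. The means were 5406 ± 1357 and 4566 ± 685 (SD, n = 3). The difference was −0.23 (0.24), with an interval from −0.76 to 0.31, or from −0.66 to 0.21 with the block. Its sign was kept with each dish left out, between −0.36 and −0.03.

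The 4 other probe sets of Tet1 were dim, between 5.63 and 130, and did not share one direction. On 95247_at the signals were 38.3, 40.2 and 5.63 in WT LIF and 41.9, 44.1 and 56.6 in STAT3-MER OHT. The groups did not overlap there, although the step from 40.2 to 41.9 is small and 1 wild type dish made most of the difference of 0.46 (0.29). The differences on 93186_at, 169656_at and 169794_i_at were −0.17 (0.44), −0.13 (0.44) and 0.38 (0.34).

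Of 40 other genes that write, read, remove or guide DNA methylation, 33 were measured, by 56 probe sets. None passed the test (limma, adjusted p), with 2 at an unadjusted p under 0.05, both lower, and the median difference was 0.00 with 29 of 56 above 0. The group values did not overlap in 3 of 56. Of all probe sets, 3.45% had an unadjusted p under 0.05 (limma) and 8.13% did not overlap. Only Dppa3, which protects maternal methylation in the zygote, met the rule for naming a gene of this list (a main probe set whose groups did not overlap and a ratio of at least 1.5). It read 1705, 709 and 1094 in WT LIF and 510, 476 and 514 in STAT3-MER OHT, all 3 transgenic dishes lying below the wild type ones. The difference was −1.09 (0.30), with an unadjusted p of 0.0067 (limma, adjusted p = 0.9996). The study had chosen Dppa3 on these arrays, so its value here is no independent evidence. Apart from the arrays, the study also reported Dppa3 as lower in the transgenic cells by real-time PCR.

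Among genes whose promoters DNA methylation is known to keep silent, 8 of 12 were measured, by 11 probe sets, with none past the test, 1 at an unadjusted p under 0.05 and a median difference of 0.03. Of all probe sets, 3.45% had an unadjusted p under 0.05 (limma) and 8.13% did not overlap. In this list the group values did not overlap in 1 of 11. This was Rhox5, a homeobox gene that the study had also chosen on these arrays, at 8431, 8354 and 3666 in WT LIF and 11516, 11885 and 14107 in STAT3-MER OHT. Every transgenic dish lay above every wild type dish, and the difference was 0.96 (0.33), with an unadjusted p of 0.0183 (limma, adjusted p = 0.9996). Apart from the arrays, the study also reported Rhox5 as higher in the transgenic cells by real-time PCR. The germ cell gene Dazl of the same list read 5185, 2440 and 467 in WT LIF and 2134, 4758 and 944 in STAT3-MER OHT, a wide spread within both groups.

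Of 22 genes of S phase, beside which Dnmt1 and Uhrf1 are read, 21 were measured, by 40 probe sets. None passed the test, 2 had an unadjusted p under 0.05, both higher, and the median difference was 0.05. The group values did not overlap in 3 of 40, each higher in STAT3-MER OHT. Of all probe sets, 3.45% had an unadjusted p under 0.05 (limma) and 8.13% did not overlap. Tyms, thymidylate synthase, met the rule for naming, at 12.6, 24.5 and 17.1 in WT LIF and 75.2, 167 and 179 in STAT3-MER OHT on the dim 168092_r_at, its only probe set, which carries a mark for relaxed rules. The transgenic dishes were all higher, with a difference of 1.73 (0.40) and an unadjusted p of 0.0018 (limma, adjusted p = 0.9996). For the 9 fibroblast marker genes, 13 probe sets of 8 genes were measured, none was above 0 and none passed the test, with a median difference of −0.22 and overlapping groups in each.

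**Figure D5:**
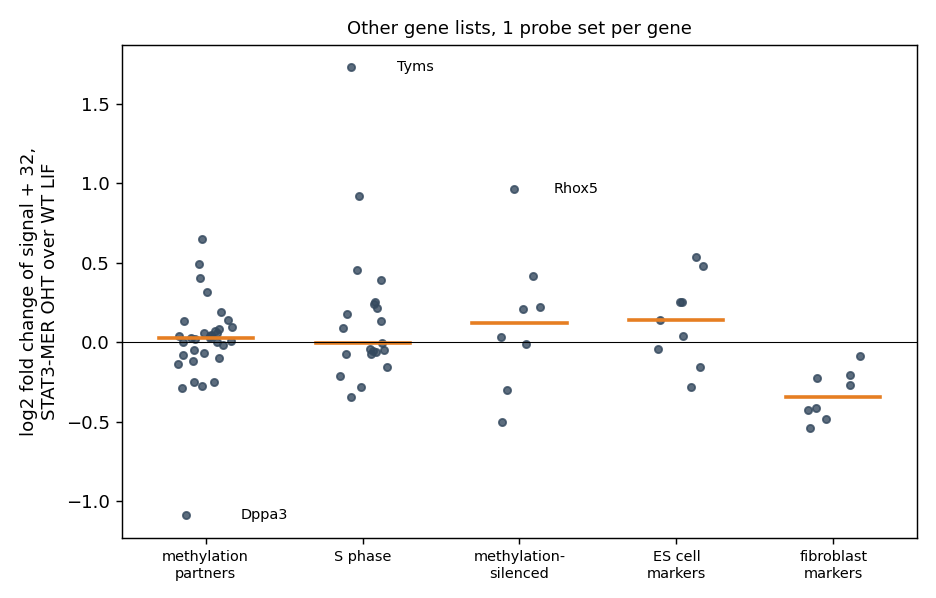
Difference between the groups (log2 fold change of signal + 32) of the genes of 5 lists, 1 probe set per gene, with a line at the median of each list. Dppa3, Tyms and Rhox5 are the genes whose dishes did not overlap between the groups. All fibroblast markers lie below 0 on this scale, with groups that overlap.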

How the data were processed

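RNA of each dish was amplified in 2 rounds and hybridized to the chips U74Av2, U74Bv2 and U74Cv2. The values the authors deposited are linear signal intensities, 1 for every probe set on every array, without detection calls. The submitters' processing notes name MAS5, and its version is not given in the sources used here. The dChip values of the paper were not used. The labels gave the groups and replicate numbers. One U74Av2 array of STAT3-MER cells without a number was given the remaining number 2, and an array labelled with conflicting chips was treated as U74Cv2, the chip whose table holds its column.

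Arrays of a chip were brought to a common trimmed mean (leaving out 2% at either end). The groups were then compared on log2(signal + 32) by two-sided limma tests, separately for every chip (limma 3.58.1, R 4.3.3, eBayes with a trend). Benjamini-Hochberg adjustment covered all 36701 probe sets (198 controls left out) at a threshold of 0.05. Dim probe sets were kept. The members, lists, tests and rule for naming were chosen with earlier results of these data known. The rule named every member. Of other lists it named genes past the test or, where there were none, those whose main probe set (the brightest without a mark for cross-binding, or the brightest of all for a gene with marked probe sets alone) had groups that did not overlap and a ratio of means of at least 1.5. The most similar genes were sought among probe sets of the same chip with 1 gene, no mark and a mean signal of at least 500, for members spanning over 2-fold. Jarid2, Dazl, Pcna and Col1a2 were described further after their values were seen. Gene names come from the chip annotation, updated through RefSeq of GRCm38.p6. Of 36701 probe sets, 29131 had 1 gene, 724 several and 6846 none.

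The number of arrays, 6 per chip, limits the precision. As a check of pairing, deviations from the group means were correlated between arrays of the same number. The values for numbers 1, 2 and 3 were −0.296, −0.335 and 0.288 on U74Av2, 0.180, 0.211 and 0.130 on U74Bv2, and 0.107, 0.132 and 0.070 on U74Cv2. On U74Av2, WT LIF number 1 went with STAT3-MER OHT number 2 (0.459) and number 2 with number 1 (0.413). Values for different numbers were all negative on U74Bv2 and U74Cv2. Deviations within a group cancel out, so these negative values largely follow from the positive ones and add no support for pairing. By this check arrays of the same number were weakly alike on U74Bv2 and, more weakly still, on U74Cv2, and not on U74Av2. The alternatives were other pseudocounts, scalings, variance models and adjustments, a filter on dim probe sets, a replicate block, each dish left out and the methods' t-test, for which unequal variances were allowed. The fit was tested on simulated data. Python packages were numpy 2.4.6, pandas 2.3.3, scipy 1.17.1 and matplotlib 3.10.9.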

Additional observations from a re-analysis of the deposited data

How the results depend on the processing

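No member passed the test under any of the 16 limma alternatives, where the smallest adjusted p of a member was 0.9644 (adjustment within each chip). The count over all probe sets was 1 higher and 0 lower, also with a replicate block, and 1 to 2 higher with a dish left out (2 without WT LIF replicate 3). The criteria of the methods, with their unadjusted p, gave 405 higher and 320 lower, among them 1 member, 1 partner, 1 methylation-silenced gene and 3 S-phase probe sets, and 0 higher after Benjamini-Hochberg adjustment. The block changed no call of a member. With it the intervals of Uhrf1 129834_f_at and Dnmt3a 166504_r_at on U74Cv2 were narrower and lay below 0, that of Dnmt3a only with the block.

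The sign was kept in 10 of 22 members and changed in 12 with a dish left out (which includes, as chosen after the data were seen, number 2 of both groups together). Over these, the difference of Dnmt1 161601_i_at ranged from −0.43 to 0.44 and that of Uhrf1 99564_at from −0.21 to 0.91. Dnmt3a 161170_r_at ranged from −0.15 to 0.16 and was −0.0064 after quantile normalization, and Dnmt3a 113658_at ranged from −0.26 to 0.32. Dnmt3b 164028_at ranged from −0.33 to 0.46 and 115066_at from −0.70 to 0.35. Dnmt3l 113451_at ranged from −0.52 to 0.58 and 168155_f_at from −0.39 to 0.80. Mbd1 104340_at ranged from −0.12 to 0.33, Mbd4 103285_at from −0.40 to 0.0634, Tet1 93186_at from −0.63 to 0.0834 and Tet1 169656_at from −0.33 to 0.23. The cause was not tested. A mean signal under 100 over the 6 arrays, found in 7 of the 22, limits what those probe sets show, and a filter of 100 kept 15.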
